A study of Mus musculus with 7 samples.

Results

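The 8 genes examined here build the inhibitory glycine and GABA synapse of the spinal cord. They were chosen by name: *Slc6a5*, *Slc32a1*, *Gad1* and *Gad2* act in the presynaptic terminal, and *Glra1*, *Glrb*, *Gphn* and *Slc12a5* act in the postsynaptic neuron. All 8 were found by GENCODE M21 symbol among the 55487 Ensembl genes of the count table, and all 8 had enough counts to be among the 18449 genes tested. The libraries came from cervical spinal cords of 8-week-old mice, 4 of them *Neat1*-KO; hSOD1G93A and 3 of them *Neat1*-WT; hSOD1G93A, with 1 library per sample. Both groups carry the hSOD1G93A transgene, a mutant human SOD1 gene of familial ALS, so the comparison asks what loss of the long non-coding RNA *Neat1* changes in this disease model; mice without the transgene were not analysed here. The knockout is constitutive, the transgene is hemizygous on a mixed B6 and SJL background, and the study used both sexes. The libraries are called *Neat1*-KO replicates 1 to 4 and *Neat1*-WT replicates 2 to 4, after their labels.

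In an inhibitory terminal of the cord, glutamate decarboxylase makes GABA from glutamate, a plasma membrane transporter takes glycine back up, and 1 vesicular transporter loads either transmitter into synaptic vesicles. Both transmitters open chloride channels on the postsynaptic cell, where gephyrin anchors the receptors beneath the terminal. A potassium-chloride cotransporter keeps the internal chloride of that cell low, which strengthens the inhibition by these channels. Glycine is the leading fast inhibitory transmitter of the spinal cord, and motor neurons receive dense glycinergic input.

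Poly(A) RNA was sequenced from directional libraries, and the deposited values are raw counts of uniquely mapped reads per gene. Total counts ran from 19661878 to 26031517 per library, and a member gene had between 1502 counts (*Gphn*) and 17645 counts (*Slc12a5*) in a library. Levels are given as CPM, counts per 1000000 counts of the TMM-scaled library. *Neat1* itself had 4.04 to 5.52 CPM in *Neat1*-KO and 80.5 to 118 CPM in *Neat1*-WT libraries, so that every library was on the side its label gives. The genotypes were set against each other with the quasi-likelihood test of edgeR, and each gene's log2 ratio below is its fitted log2 fold change, *Neat1*-KO over *Neat1*-WT, with its standard error (SE). Coordinates refer to GRCm38 and come from GENCODE M21. A gene was called at a Benjamini-Hochberg adjusted p under 0.1 over all genes tested and an absolute log2 ratio over 0.58, the thresholds of the study. Of all genes tested, 6 were called by edgeR, which is 0.0325%, and 27 by DESeq2. The study, which analysed its raw counts with the online tool iDEP, reported more altered genes at these thresholds than edgeR called here. None of the 8 members was called by edgeR, DESeq2 or limma-voom. At an unadjusted p under 0.05 stood 2 of them, both higher in *Neat1*-KO mice, where 2.24% of all genes tested were higher and 2.4% lower at that level. This count of 2 was 0 or 1 in 10 of 17 alternative fits.

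*Slc6a5* and *Gad1* are the members whose libraries did not overlap between the genotypes, and *Glrb* is the member with the most negative fold change. The sequences before the starts of these 3 genes are shown to locate them. They are RefSeq sequences on GRCm38.p6, each cut to the longest run within the 250 bases before the RefSeq start that lies in no GENCODE exon. Capitals mark matches, on either strand, to the E-box CANNTG, the TATA box TATAAA and the GC box GGGCGG.
*Slc6a5*, chr7:49910049-49910145, plus strand: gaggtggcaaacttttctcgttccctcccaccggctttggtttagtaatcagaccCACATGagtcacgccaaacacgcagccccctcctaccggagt
*Gad1*, chr2:70561879-70562041, plus strand: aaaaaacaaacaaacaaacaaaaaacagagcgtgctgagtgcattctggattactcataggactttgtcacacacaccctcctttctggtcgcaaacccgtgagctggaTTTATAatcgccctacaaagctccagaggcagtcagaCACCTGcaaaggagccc
*Glrb*, chr3:80913661-80913910, minus strand: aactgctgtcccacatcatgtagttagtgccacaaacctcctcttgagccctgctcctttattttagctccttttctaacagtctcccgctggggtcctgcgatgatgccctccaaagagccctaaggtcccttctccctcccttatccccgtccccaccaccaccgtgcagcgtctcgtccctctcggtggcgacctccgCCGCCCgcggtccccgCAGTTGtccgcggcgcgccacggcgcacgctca
The *Gad1* sequence lies between exons within the annotated span of the gene, whose first exons start further upstream. Each of the 3 sequences holds 1 E-box. An E-box is also found in 35.3%, 52.1% and 66.2% of the 32817 RefSeq promoter windows over the same stretches of 97, 163 and 250 bases. The stretches end 154, 88 and 1 bases before the starts of *Slc6a5*, *Gad1* and *Glrb*, so they cover different positions. A TATA box match stands only in the *Gad1* sequence, as in 7.78% of windows over that stretch. It is on the reverse strand, 141 bases before the start. A GC box stands only in the *Glrb* sequence, as in 32.7%. It lies 49 bases before the start, a position that the *Slc6a5* and *Gad1* sequences shown do not reach. Neither the homeodomain core TAATTA nor the cAMP response element TGACGTCA is in any of the 3. Such matches are a description of these letters and not of bound sites. RefSeq windows were found for 7 of the 8 members.

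On the presynaptic side, all 4 genes had a higher fitted level in *Neat1*-KO mice, by 3.93% to 14.8%, and for 2 of them no library of either genotype fell within the range of the other. *Slc6a5* (ENSMUSG00000039728; chromosome 7, 49910146 to 49963856) encodes the neuronal plasma membrane glycine transporter, the defining gene of glycinergic neurons. Its level was 445, 478.2, 479.9 and 504.5 CPM in the *Neat1*-KO libraries, in the order of their replicate numbers, and 413.1, 392.7 and 441.1 CPM in the *Neat1*-WT libraries. Every *Neat1*-KO library lay above every *Neat1*-WT library, although *Neat1*-KO replicate 1 and *Neat1*-WT replicate 4 were only a few CPM apart. On average *Slc6a5* had 476.9 ± 24.4 CPM (SD, n = 4) without *Neat1*, compared with 415.6 ± 24.3 CPM (SD, n = 3). This is a log2 ratio of 0.20 (SE 0.0694, 95% interval 0.048 to 0.35), with an unadjusted p of 0.0137 and an adjusted p of 0.992 (edgeR). A two-sided exact permutation test over the 35 possible arrangements of the samples gave a p of 0.0571, where the smallest it can give is 0.0286. Without *Neat1*-WT replicate 3, the unadjusted p of *Slc6a5* was 0.0775.

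*Gad1* (ENSMUSG00000070880; chromosome 2, 70553072 to 70602014) encodes the glutamate decarboxylase that makes most GABA of the cell. It had 151.1, 152.7, 151.3 and 156.6 CPM in *Neat1*-KO libraries and 141.9, 134 and 139.5 CPM in *Neat1*-WT libraries. The *Neat1*-KO libraries lay close together and all above the *Neat1*-WT libraries. Mean levels were 153 ± 2.53 CPM (SD, n = 4) against 138.4 ± 4.03 CPM (SD, n = 3). Their log2 ratio was 0.14 (SE 0.0638, 95% interval 0.0056 to 0.28), with an unadjusted p of 0.0426 and an adjusted p of 0.992 (edgeR), and the exact permutation test gave 0.0286. Libraries without overlap can give only 0.0286 or, as for *Slc6a5*, 0.0571 in that test. Its value, not adjusted over genes, thus adds nothing to the separation itself. The unadjusted p of *Gad1* was under 0.05 in 7 of 17 alternative fits and reached 0.157 without *Neat1*-WT replicate 3. A pseudogene copy, *Gad1-ps*, shares 94.24% identity over 53.3% of the longest coding transcript of *Gad1*, but had only 1 to 11 counts per library against at least 2736 for *Gad1*. *Slc6a5* and *Gad1* were thus 2 of the 8 members with libraries that did not overlap, both higher, where 2.91% of all genes tested did so with higher and 2.57% with lower *Neat1*-KO libraries.

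The other two presynaptic genes overlapped between the genotypes. *Gad2* (ENSMUSG00000026787; chromosome 2, 22622205 to 22693874) encodes the second decarboxylase, which is bound to vesicles of the terminal. It had 94.78, 94.97, 99.85 and 103.7 CPM in *Neat1*-KO libraries and 97.9, 90.34 and 95.59 CPM in *Neat1*-WT libraries. *Neat1*-KO replicates 1 and 2 lay below *Neat1*-WT replicates 2 and 4. *Gad2* had a log2 ratio of 0.056 (SE 0.0711, 95% interval -0.098 to 0.21, adjusted p = 0.992, edgeR), which was 0.022 without *Neat1*-WT replicate 3 and 0.029 without *Neat1*-KO replicate 4. *Slc32a1* (ENSMUSG00000037771; chromosome 2, 158610767 to 158615748) encodes the vesicular transporter shared by GABA and glycine. It had 286.4, 269.1, 215.5 and 258.2 CPM in *Neat1*-KO libraries and 246.8, 259 and 218.2 CPM in *Neat1*-WT libraries. *Neat1*-KO replicate 3 and *Neat1*-WT replicate 4 were low and *Neat1*-KO replicate 1 was high, so the spread within each genotype exceeded the difference of the means. *Slc32a1* had a log2 ratio of 0.092 (SE 0.096, 95% interval -0.12 to 0.30, adjusted p = 0.992, edgeR), which was 0.022 without *Neat1*-WT replicate 4, 0.0345 without *Neat1*-KO replicate 1, 0.14 without *Neat1*-WT replicate 3 and 0.17 without *Neat1*-KO replicate 3. Of its exonic length, 24.9% (697 bp) is overlapped on the opposite strand by the antisense gene *Gm14205*, which itself had 1409 to 2431 counts, so part of the *Slc32a1* count would be uncertain under counting without regard to strand. Smaller antisense overlaps touch *Glra1* (5.84% of its exonic length, by *Gm12236*) and *Gphn* (3.92%, by *Gm48226*).

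**Figure D1:**
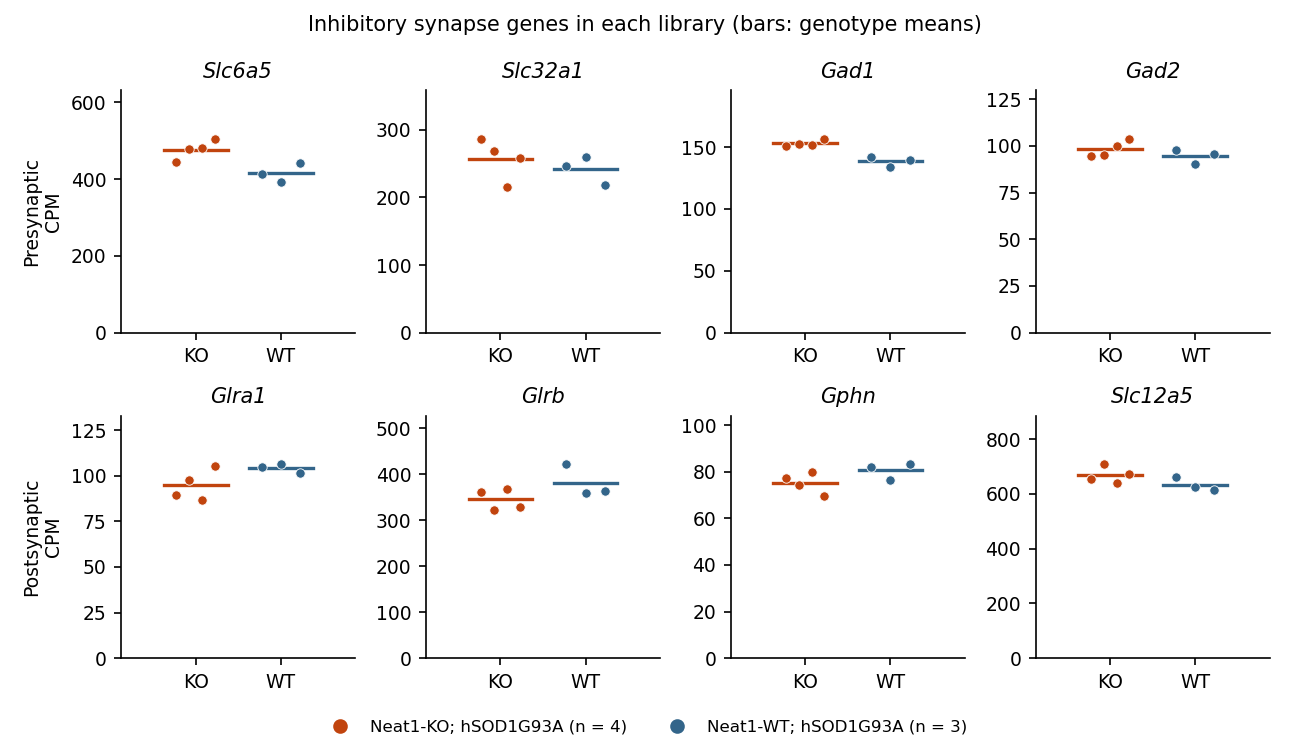
CPM of the 8 inhibitory synapse genes, 1 point per library, with the *Neat1*-KO libraries (n = 4) on the left and the *Neat1*-WT libraries (n = 3) on the right of each panel, bars at the genotype means and each axis from 0. In the panels of *Slc6a5* and *Gad1* all *Neat1*-KO points lie above all *Neat1*-WT points, and in the other 6 panels the points overlap.

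On the postsynaptic side, the 3 genes of the receptor and its anchor had a lower fitted level in *Neat1*-KO mice, with differences of -9.45% to -6.55%, while *Slc12a5* was 5.6% higher. In none of the 4 did the libraries of the genotypes separate, and none stood at an unadjusted p under 0.05. *Glra1* (ENSMUSG00000000263; chromosome 11, 55514238 to 55608198, minus strand) encodes the alpha subunit of the adult spinal glycine receptor, whose mutations cause startle disease. It had 89.39, 97.67, 86.86 and 105.5 CPM in *Neat1*-KO libraries and 104.8, 106.2 and 101.7 CPM in *Neat1*-WT libraries. The *Neat1*-WT libraries lay close together, and *Neat1*-KO replicate 4 fell among them while the other *Neat1*-KO libraries were below. Its log2 ratio was -0.14 (SE 0.0805, 95% interval -0.31 to 0.039), with an unadjusted p of 0.116 and an adjusted p of 0.992 (edgeR). Over the 17 alternative fits the log2 ratio of *Glra1* ran from -0.19 without *Neat1*-KO replicate 4 (unadjusted p = 0.0383, adjusted p = 1, edgeR) to -0.065 with *Xist* as a covariate (unadjusted p = 0.539), and only the first of these fits was under 0.05.

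*Glrb* (ENSMUSG00000028020; chromosome 3, 80843599 to 80913660, minus strand) encodes the beta subunit, through which the glycine receptor binds gephyrin. It had 362, 321.9, 368.5 and 328.8 CPM in *Neat1*-KO libraries and 421.2, 359 and 363.7 CPM in *Neat1*-WT libraries. *Neat1*-WT replicate 2 stood above all others, and *Neat1*-KO replicates 1 and 3 were level with the other *Neat1*-WT libraries. *Glrb* had a log2 ratio of -0.14 (SE 0.0789, 95% interval -0.31 to 0.028, unadjusted p = 0.0934, adjusted p = 0.992, edgeR), and it was -0.066 without *Neat1*-WT replicate 2. *Gphn* (ENSMUSG00000047454; chromosome 12, 78226379 to 78684772) encodes gephyrin, the scaffold of glycine and GABA-A receptors, which also serves in molybdenum cofactor synthesis in all cells. It had 77.16, 74.45, 79.99 and 69.6 CPM in *Neat1*-KO libraries and 82.15, 76.38 and 83.15 CPM in *Neat1*-WT libraries. No genotype stood apart, since *Neat1*-KO replicates 1 and 3 lay above *Neat1*-WT replicate 3. The log2 ratio of *Gphn* was -0.098 (SE 0.0762, 95% interval -0.26 to 0.067, adjusted p = 0.992, edgeR), and it was -0.062 without *Neat1*-KO replicate 4.

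*Slc12a5* (ENSMUSG00000017740; chromosome 2, 164960802 to 164999731) encodes the neuronal potassium-chloride cotransporter that sets the chloride gradient. It had 653.9, 707.7, 641.1 and 673 CPM in *Neat1*-KO libraries and 660.1, 626.4 and 613.8 CPM in *Neat1*-WT libraries. *Neat1*-WT replicate 2 fell within the range of the *Neat1*-KO libraries. *Slc12a5* thus had a log2 ratio of 0.079 (SE 0.0643, 95% interval -0.061 to 0.22, adjusted p = 0.992, edgeR), in the direction of the presynaptic genes, and it was 0.05 without *Neat1*-KO replicate 2. The 95% intervals of all 8 members lay between -0.31 and 0.35 on the log2 scale, inside the threshold of 0.58 on both sides, so a change as large as that threshold lies outside each interval while changes of the size seen here cannot be told from 0 after adjustment over all genes.

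**Figure D2:**
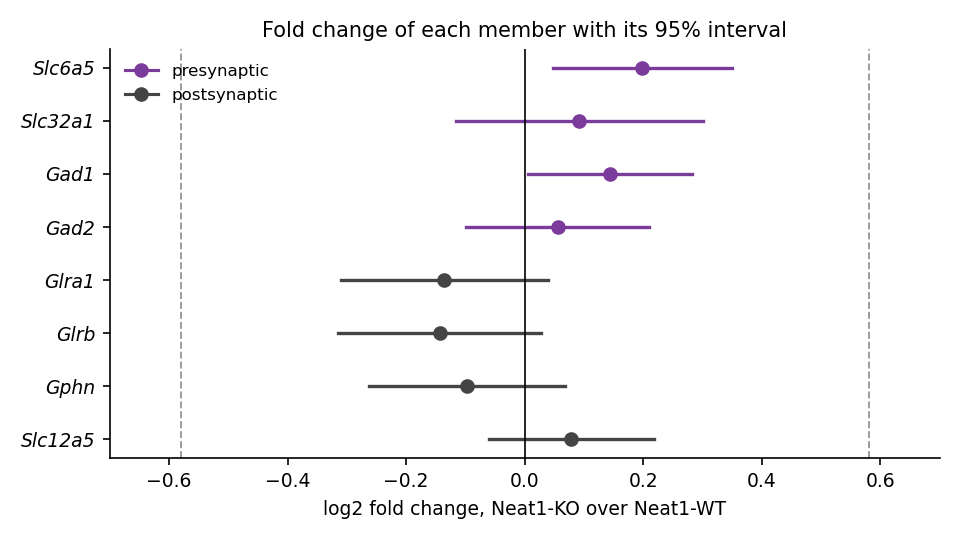
Log2 fold change of each member, *Neat1*-KO over *Neat1*-WT, with its 95% interval from edgeR; presynaptic genes are purple, postsynaptic genes grey, and dashed lines mark the call threshold of 0.58. The intervals of *Slc6a5* and *Gad1* lie above 0, and all 8 lie inside the dashed lines.

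The presynaptic genes were then set against the postsynaptic genes. All 4 presynaptic members and 1 of the 4 postsynaptic members had a log2 ratio above 0, as 51.8% of all genes tested did. The median log2 ratio was 0.12 for the presynaptic and -0.12 for the postsynaptic members, beside 0.0062 for all genes tested, so the 2 medians were 0.23 apart on the log2 scale. Within each library, the mean log2 level of the presynaptic members minus that of the postsynaptic members, each gene's log2 CPM first centred on its mean over the 7 libraries, was 0.084, 0.087, 0.026 and 0.14 in the *Neat1*-KO libraries and -0.14, -0.098 and -0.095 in the *Neat1*-WT libraries. By this difference, which was given no test because it is a score over chosen genes, each *Neat1*-KO library lay above each *Neat1*-WT library. The score holds *Slc6a5* and *Gad1*, whose libraries already separate on their own. How often such scores of other genes separate was not measured. Summed over the 4 genes, the presynaptic members reached 985.5 ± 32.1 CPM (SD, n = 4) without *Neat1* and 890 ± 12.4 CPM (SD, n = 3) with it. The postsynaptic members summed to 1184 ± 12.1 CPM (SD, n = 4) against 1199 ± 59.5 CPM (SD, n = 3). Presynaptic sums did not overlap between the genotypes, and the postsynaptic sums did, with *Neat1*-WT replicate 2 the highest of all libraries. *Slc6a5* is the largest term of the presynaptic sum in every library, so that sum follows it more than the other genes.

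Markers of the cells in the tissue were measured beside these genes. In bulk tissue, fewer cells of a type and less RNA per cell cannot be told apart. The 11 pan-neuronal markers summed to 7486 to 8195 CPM in *Neat1*-KO and 7304 to 8098 CPM in *Neat1*-WT libraries, with 7 genes above and 4 below 0 in log2 ratio and none at an unadjusted p under 0.05. As a share of that sum, *Slc6a5* was 5.43% to 6.58% in *Neat1*-KO and 5.1% to 6.04% in *Neat1*-WT libraries, and *Gad1* was 1.84% to 2.04% and 1.75% to 1.91%, so the shares of both genes overlapped between the genotypes. With the pan-neuronal markers as a covariate in edgeR, the log2 ratio of *Slc6a5* was 0.21 (unadjusted p = 0.00875, adjusted p = 0.69) and that of *Gad1* was 0.14 (unadjusted p = 0.0497, adjusted p = 0.833). The 6 markers of excitatory neurons, led by the vesicular glutamate transporter gene *Slc17a6*, summed to 234.2 to 259.5 CPM and 237.4 to 270.2 CPM. *Slc17a6* had 206.2 ± 12.5 CPM (SD, n = 4) and 214.2 ± 22.4 CPM (SD, n = 3), whereas the related *Slc17a7* was under 1 CPM on average in both genotypes.

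The summed motor neuron markers separated the genotypes. All 6 had a log2 ratio below 0, with a median of -0.25, though none was called. At an unadjusted p under 0.05 stood 3 of the 6, where 2.4% of all genes tested were lower at that level. Their sum was 277.8 to 338.4 CPM in *Neat1*-KO and 359.7 to 428.1 CPM in *Neat1*-WT libraries, without overlap. None of the 6 separated the genotypes on its own, and *Slc5a7* is the largest term of the sum in every library. At the same age, the paper counted significantly fewer motor neurons in the lumbar cord of *Neat1*-KO; hSOD1G93A mice. The libraries here came from cervical cord, and a link between that count and these sums was not tested. The 7 oligodendrocyte markers were also all below 0, with a median of -0.16. At an unadjusted p under 0.05 stood 2 of the 7, beside the same 2.4% of all genes tested. Their sums of 33950 to 36820 CPM and 35500 to 43470 CPM overlapped. The libraries did not overlap for 2 of these 7 genes, both lower, where this held for 2.57% of all genes tested. The part of either in the values of the inhibitory synapse genes was not tested. Astrocyte markers summed to 4923 to 6410 CPM and 5327 to 6507 CPM, with 3 genes above and 4 below 0. Microglial markers summed to 259.6 to 359.7 CPM and 251.5 to 343.2 CPM, meningeal fibroblast markers to 69.35 to 181.9 CPM and 62.69 to 187.1 CPM, and endothelial markers to 131.9 to 145.2 CPM and 137.9 to 159.1 CPM, all overlapping. The 2 markers of oligodendrocyte precursors summed to 51.32 to 78.08 CPM and 59.07 to 80.86 CPM. Blood markers summed to at most 13.21 CPM and sensory ganglion markers to at most 3.212 CPM in any library, with *Scn10a*, *Trpv1* and *Mrgprd* too low for a test.

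**Figure D3:**
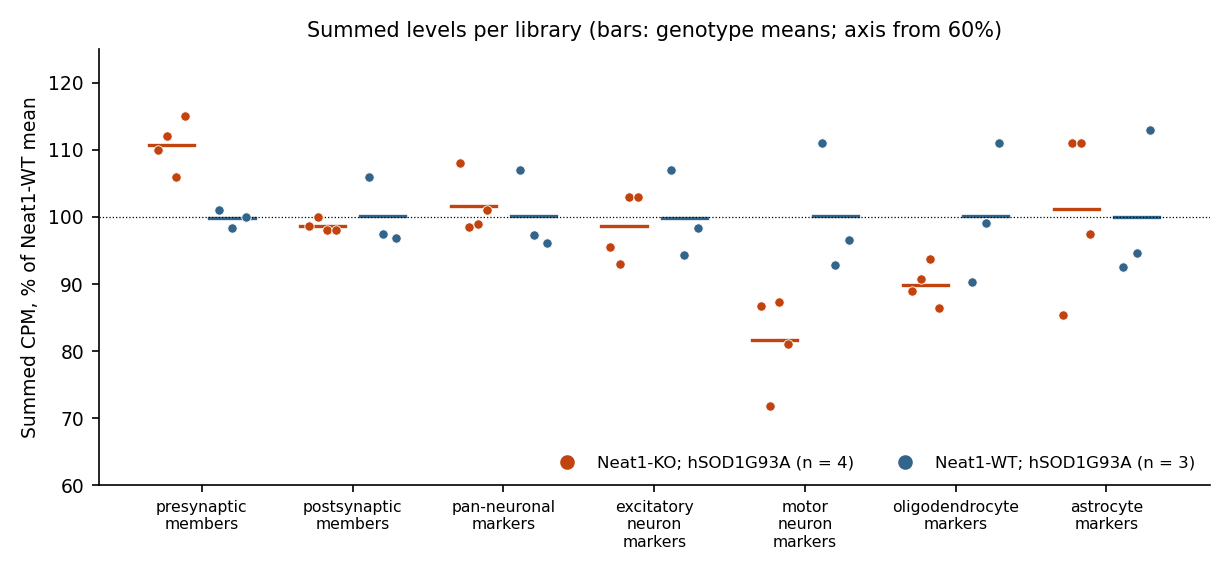
Summed CPM of the presynaptic and postsynaptic members and of 5 marker lists in each library, as a percent of the *Neat1*-WT mean, with bars at the genotype means and an axis that starts at 60%. Presynaptic sums were 106% to 115% in *Neat1*-KO and 98.4% to 101% in *Neat1*-WT libraries, motor neuron marker sums were 71.8% to 87.4% and 92.9% to 111%, and the other lists overlap.

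Levels of different genes were compared per kilobase of exon. In this order the members were *Slc32a1* with 89.5 CPM per kb on average over all 7 libraries, *Slc12a5* with 87.8, *Glrb* with 77.5, *Slc6a5* with 62.6, *Glra1* with 41, *Gphn* with 20.7, *Gad1* with 19.2 and *Gad2* with 16.5. The ranges over the libraries overlapped between *Slc32a1* and *Slc12a5*, between *Slc12a5* and *Glrb*, and between *Glrb* and *Slc6a5*. *Slc6a5* stayed above *Glra1* and *Glra1* above *Gphn* in all libraries. The ranges of *Gphn*, *Gad1* and *Gad2* overlapped each with the next, although *Gad1* was above *Gad2* within every library. The exon length counts every annotated exon, so genes with long alternative exons are set lower than their main transcript would be. *Gad1* has 7639 bp of exon but 3355 bp in its longest coding transcript, and *Glrb* has 4655 and 3029 bp. For *Gad2* the lengths are 5876 and 5744 bp. The order above thus depends on the length used, most of all for *Gad1*.

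Ratios within a library leave out differences of depth. *Gad1* over *Gad2* per kb was 1.227, 1.237, 1.166 and 1.162 in *Neat1*-KO and 1.115, 1.141 and 1.122 in *Neat1*-WT libraries. Every *Neat1*-KO library was above every *Neat1*-WT library in this ratio, and the means differed by 6.39%. The size of the ratio rests on the 7639 bp of *Gad1* exon, where its longest coding transcript has 3355 bp. The comparison between the genotypes does not depend on that length. *Slc6a5* over *Slc32a1* was 0.603 to 0.865 in *Neat1*-KO and 0.589 to 0.785 in *Neat1*-WT libraries. *Glra1* over *Glrb* was 0.4545 to 0.6185 and 0.4798 to 0.5705. *Slc12a5* over *Slc12a2*, the gene of the cotransporter that brings chloride into cells, was 3.311 to 4.768 and 2.914 to 4.156. These last 3 ratios overlapped between the genotypes, and no ratio was given a test.

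Beyond the 8 members, 68 genes of glycine and GABA signalling were listed by role, of which 63 were tested and none was called. Of the 63, 28 had a log2 ratio above 0 and 35 below, with a median of -0.014. At an unadjusted p under 0.05 stood 3 of them, 2 higher and 1 lower, where 2.24% of all genes tested were higher and 2.4% lower. The libraries did not overlap for 1 of the 63, lower, as for 2.57% of all genes tested.

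Among the receptors, the glycine receptor of the cord was led by the members *Glrb* and *Glra1*. The other subunits were far lower, with 3.21 CPM per kb for *Glra2*, the fetal alpha subunit, 2 for *Glra3*, a subunit of dorsal horn synapses, and 0.349 for *Glra4*. Of these, *Glra2* had a log2 ratio of 0.19 (SE 0.142), *Glra3* of -0.32 (SE 0.17) and *Glra4* of -0.88 (SE 0.488). *Glra4* had 2 to 24 counts per library, and none of the 3 stood at an unadjusted p under 0.05. Of the 19 GABA-A receptor subunits, 14 were tested, with 5 above and 9 below 0 and a median of -0.076. *Gabra3* was the highest per kb with 30.4 CPM per kb, followed by *Gabra5* with 23.6, a subunit of receptors outside the synapse. *Gabrb2* had 29.08, 24.91, 26.45 and 30.05 CPM in *Neat1*-KO and 34.13, 29.88 and 31.92 CPM in *Neat1*-WT libraries. All but *Neat1*-KO replicate 4 lay below the *Neat1*-WT libraries. *Gabrb2* had a log2 ratio of -0.21 (SE 0.0939, unadjusted p = 0.0429, adjusted p = 0.992, edgeR). *Gabrg3*, with the highest fold change of the list, had 7.24 CPM in *Neat1*-KO replicate 1 whereas the rest of that genotype had 13.2 to 18.1 CPM and the *Neat1*-WT libraries 9.6 to 10.6 CPM. Its log2 ratio was 0.45 (SE 0.233, adjusted p = 0.992, edgeR). *Gabra6*, the subunit of cerebellar granule cells, and *Gabrp* had 0 counts in all libraries.

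**Figure D4:**
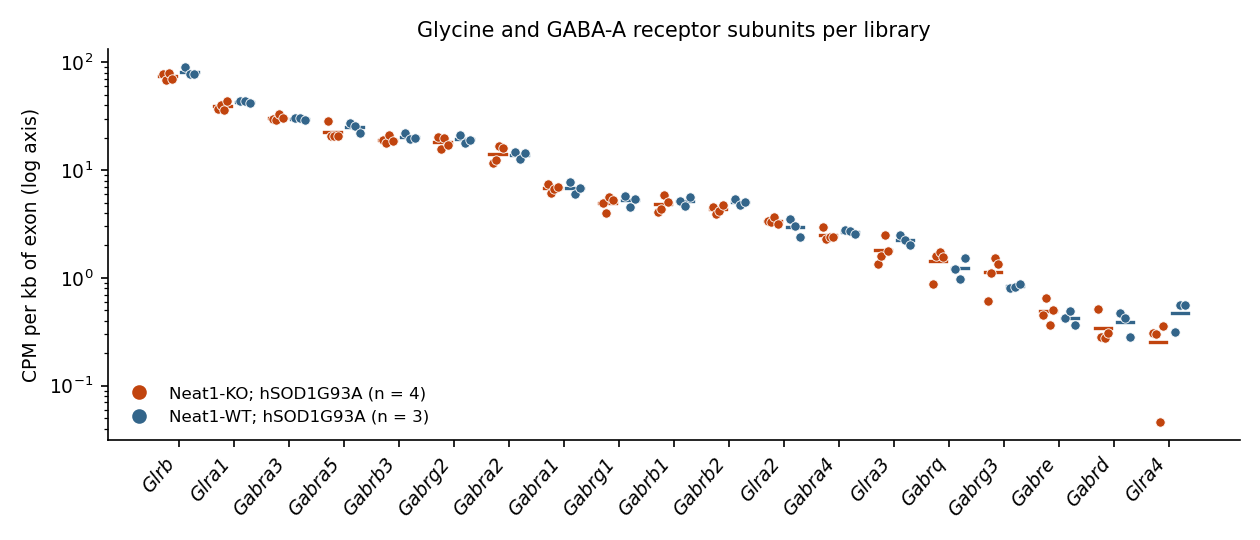
Levels of the tested glycine and GABA-A receptor subunits per library, in CPM per kb of exon on a log axis and in the order of their means over all libraries, with *Neat1*-KO (n = 4) and *Neat1*-WT (n = 3) libraries side by side and bars at the means. *Glrb* and *Glra1* lead with 77.5 and 41 CPM per kb, and the genotypes overlap for each subunit shown.

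For the GABA-B receptor, *Gabbr1* had 70.1 and *Gabbr2* 22.2 CPM per kb, and the log2 ratios of the 5 genes of this list ran from -0.23 (*Kctd16*) to 0.095 (*Gabbr2*). The 7 genes listed under inhibitory postsynaptic scaffold and adhesion, not all of them scaffold or adhesion proteins, ran from -0.12 (*Slitrk3*) to 0.14 (*Shisa7*). *Nlgn2*, the adhesion protein of inhibitory synapses, had 42.7 CPM per kb and a log2 ratio of 0.041 (SE 0.0688), and *Clptm1* had 29.5 CPM per kb and a log2 ratio of -0.01 (SE 0.0712). In the uptake list, 4 of 5 genes were above 0. *Slc6a11*, a GABA transporter of astrocytes, had 515.6, 542.1, 482.1 and 602.1 CPM in *Neat1*-KO and 447.5, 446.9 and 502.5 CPM in *Neat1*-WT libraries. *Neat1*-KO replicate 3 lay below *Neat1*-WT replicate 4, and the rest separated. *Slc6a11* had a log2 ratio of 0.20 (SE 0.0827, unadjusted p = 0.0302, adjusted p = 0.992, edgeR). The glial glycine transporter gene *Slc6a9* had a log2 ratio of -0.014 (SE 0.065, 95% interval -0.16 to 0.13), close to 0 where the neuronal transporter gene *Slc6a5* had 0.20. A test of the difference between these genes was not run.

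In the list of chloride transport and its kinases, 2 of 8 genes were above 0, from -0.19 (*Wnk3*) to 0.13 (*Slc12a7*). *Stk39* and *Oxsr1*, which encode the kinases that phosphorylate the cotransporters, had 29.1 and 23.2 CPM per kb and log2 ratios of -0.081 (SE 0.0764) and -0.11 (SE 0.0725). *Slc12a2* had 239.5 ± 34.9 CPM (SD, n = 4) and 257.3 ± 44.7 CPM (SD, n = 3), a log2 ratio of -0.10 (SE 0.123). In the list of glycine and GABA metabolism, 4 of 7 genes were above 0, from -0.083 (*Shmt1*) to 0.18 (*Gcsh*), and *Abat*, which breaks down GABA, had 84.1 CPM per kb and a log2 ratio of 0.081 (SE 0.0654). The 14 transcription factors that mark spinal inhibitory interneurons split evenly, with 7 above and 7 below 0. *Lhx5* had 7.5, 11.33, 9.465 and 10.56 CPM in *Neat1*-KO and 6.246, 8.87 and 7.036 CPM in *Neat1*-WT libraries. *Neat1*-KO replicate 1 lay below *Neat1*-WT replicate 3. *Lhx5* had a log2 ratio of 0.40 (SE 0.172, unadjusted p = 0.0376, adjusted p = 0.992, edgeR). *Pax2*, a marker of most inhibitory dorsal horn neurons, had a log2 ratio of 0.17 (SE 0.102, adjusted p = 0.992, edgeR). *Gata3* was the gene with libraries that did not overlap, at 0.565 to 0.725 CPM in *Neat1*-KO and 0.765 to 0.951 CPM in *Neat1*-WT libraries, which is 11 to 21 counts per library and a log2 ratio of -0.32 (SE 0.322).

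**Figure D5:**
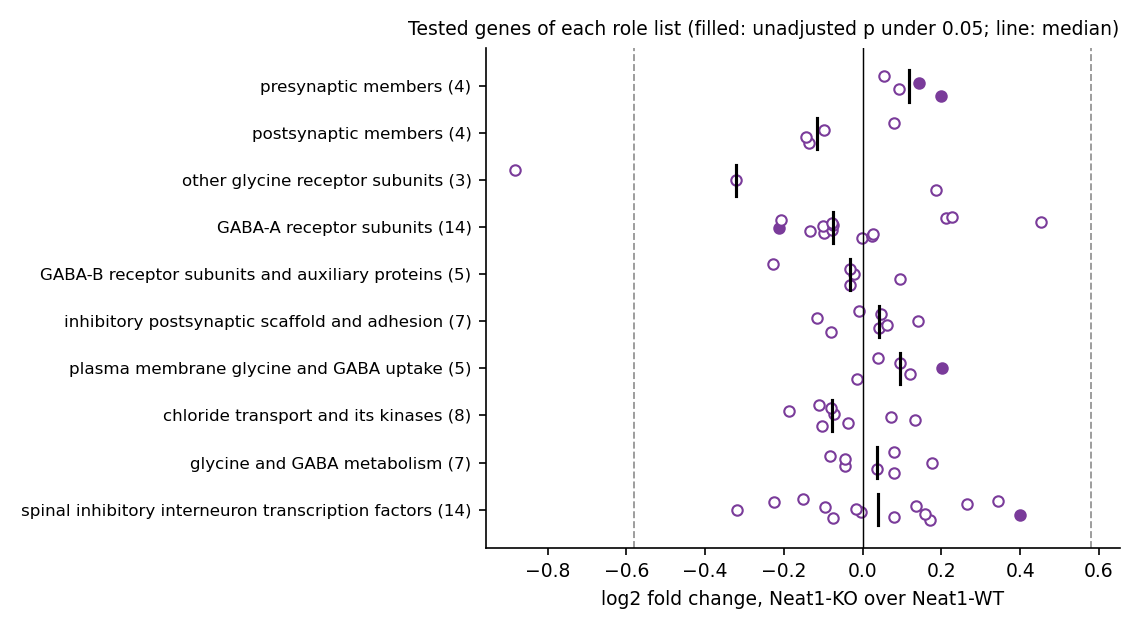
Log2 fold change, *Neat1*-KO over *Neat1*-WT, of each tested gene by role list (number of genes in brackets), with filled points at an unadjusted p under 0.05, a black line at each list's median and dashed lines at the call threshold of 0.58. The presynaptic members have a median of 0.12 and the postsynaptic members of -0.12, and only *Glra4*, with 2 to 24 counts per library, lies outside the dashed lines.

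The genes with the pattern most like that of *Slc6a5* and *Glra1* were sought among 10900 tested genes with a mean of at least 10 CPM, by the root mean square difference of centred log2 levels over the 7 libraries. For *Slc6a5* the nearest were the urea transporter gene *Slc14a1* (0.0372), *Gprasp1* (0.0403) and the SNARE gene *Vti1a* (0.0426), where the median of all genes compared was 0.167. For *Glra1* they were *Mllt1* (0.0367), *Gm13872* (0.0446) and *Sec23ip* (0.0533), beside a median of 0.161. These names describe likeness over 7 libraries only.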

How the data were processed

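RNA-seq of cervical spinal cords was analysed for 4 *Neat1*-KO; hSOD1G93A and 3 *Neat1*-WT; hSOD1G93A mice, grouped by the sample titles. The authors trimmed paired-end reads with Trimmomatic 0.38, aligned them with HISAT2 2.1.0 (mm10 in the submitters' processing notes), counted uniquely mapped reads with featureCounts 1.6.3 and deposited the raw counts per Ensembl gene without normalization. The annotation release and the strand setting are not given in the sources used here. All per-sample columns were used. GENCODE M21 on GRCm38 named 55227 of 55487 genes, and the rest hold 0.00446% of the counts.

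Counts were tested with edgeR 4.0.16 (R 4.3.3), and DESeq2 1.42.0 and limma 3.58.1 served for alternatives; tables came from pandas 2.3.3, figures from matplotlib 3.10.9 (Python 3.11.15) and copies from BLAST 2.17.0. In edgeR, filterByExpr and TMM (factors 0.991 to 1.008) were followed by the quasi-likelihood test with Benjamini-Hochberg adjustment. Standard errors are the fold change over the root of the F statistic. Single values were also compared by a two-sided exact permutation test. A copy was a transcript with at least 90% identity over at least 50% of the length. The tests were tested on simulated counts.

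The members and all gene lists were chosen with earlier results of these data known. In each role list the text names genes called or at an unadjusted p under 0.05, those with the highest and lowest fold change and the 2 with the highest level per kb; it also names the 3 nearest patterns. *Gabra6*, *Gabrp*, *Slc17a7*, the undetected ganglion markers and *Gata3* were named after their values were seen. Alternatives were other scaling factors (median of ratios, upper quartile), no filter or a filter of 0.5 CPM in 1 library, DESeq2, limma-voom, robust dispersion, a replicate block, *Xist* or the pan-neuronal markers in the model, leaving out any 1 library, and other thresholds. Intervals give the uncertainty of each fitted log2 fold change, estimated from the spread between these samples.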

Additional observations from a re-analysis of the deposited data

Results flagged for a closer look

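Over the 4 *Neat1*-KO libraries, 97 gene levels, sums and shares were searched for 1 library well apart from the rest, which was found for 5, about the 4.85 that chance alone would give. *Gabra5* had 84.82 CPM in *Neat1*-KO replicate 1 and 61.47 to 61.85 CPM in the other 3, so the gap was 0.984 of the range; *Neat1*-WT libraries had 65.21 to 80.7 CPM. *Gabrd* had 1.49 CPM in *Neat1*-KO replicate 1 and 0.789 to 0.877 CPM in the others (0.874 of the range), with 17 to 29 counts per *Neat1*-KO library. *Lhx1* had 8.546 CPM in *Neat1*-KO replicate 2 and 7.323 to 7.516 CPM in the others (0.842 of the range). The share of *Gad1* in the summed pan-neuronal markers was 1.84% in *Neat1*-KO replicate 1 and 2.01% to 2.04% in the others (0.85 of the range), although the CPM of *Gad1* itself did not set that library apart. The summed endothelial markers were 131.9 CPM in *Neat1*-KO replicate 4 and 143 to 145.2 CPM in the others (0.835 of the range).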

How the results depend on the processing

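No member and no other gene of the pathway lists was called under any of the 19 alternatives, stricter and looser thresholds included. The log2 fold change of each of the 8 members kept its sign under all 17 alternative fits, from 0.16 to 0.28 for *Slc6a5*, 0.12 to 0.18 for *Gad1*, 0.022 to 0.17 for *Slc32a1* and 0.022 to 0.13 for *Gad2*, and from -0.19 to -0.065 for *Glra1*, -0.19 to -0.066 for *Glrb*, -0.14 to -0.062 for *Gphn* and 0.05 to 0.11 for *Slc12a5*. The number of members at an unadjusted p under 0.05 was 2 as reported, and 1 (*Slc6a5*) with median-of-ratios factors, without the filter on low counts, with robust dispersion, with *Xist* as a covariate and with the replicate block. With 1 library left out it lay between 0 and 2: leaving out *Neat1*-WT replicate 3 gave 0, leaving out *Neat1*-KO replicate 4 gave 1 (*Glra1*), and leaving out *Neat1*-KO replicate 2 or one of the *Neat1*-WT replicates 2 and 4 gave 1 (*Slc6a5*). The difference between the presynaptic and postsynaptic medians lay between 0.20 and 0.27. With the replicate block this difference was 0.22, and *Slc6a5* had a log2 fold change of 0.23 with an adjusted p of 0.846 (edgeR). No *Neat1*-WT library is numbered 1, so *Neat1*-KO replicate 1 did not inform the genotype difference in this fit. The numbers do not mark a known shared litter, and the main fit paired no samples. Same-numbered libraries had correlations of their deviations from -0.261 to -0.00868 across genes. Differently numbered libraries ran from -0.319 to 0.248. With spans this wide, the correlations cannot show whether same-numbered samples shared a litter or a preparation. Over all genes, the number called was 6, and 27 with DESeq2, 39 with the replicate block, 124 without the filter, 31 without *Neat1*-KO replicate 1 and 3 without *Neat1*-WT replicate 3; the cause of these differences was not tested. At this depth each member had at least 1502 counts in each library, while the number of mice was 4 and 3.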
